A study of Mus musculus with 2 samples.

Results

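The 9 genes described here, Mest, H19, Igf2, Dlk1, Meg3, Peg3, Plagl1, Grb10 and Cdkn1c, belong to the imprinted genes of the mouse that act on growth, and they were taken by name from the 31054 features counted in single cells. The cells were hepatic stellate cells (HSCs), the vitamin A-storing pericytes of the liver that become its main collagen producers after injury, isolated from male C57BL/6 mice by pronase and collagenase perfusion and a Nycodenz density gradient. There were 2 libraries, 1 per genotype, both from animals that had received CCl4 for 4 weeks together with tamoxifen and diphtheria toxin. The p16-Alb-LRTD mice, which were heterozygous, carried p16-CreERT2 and Alb-DreERT2 together with R26-CAG-LSL-RSR-tdTomato-2A-DTR, so that hepatocytes with an active p16 gene express the diphtheria toxin receptor and are removed by the toxin. The p16-LRTD control mice carried p16-CreERT2 and the same R26-CAG-LSL-RSR-tdTomato-2A-DTR reporter without the hepatocyte recombinase. The number of mice behind each library and their age were not stated, so a difference between libraries cannot be told apart from a difference between animals, and no test between genotypes was possible. The question addressed is how these genes differed in HSCs, and in the endothelial and Kupffer cells isolated with them, when hepatocytes with high p16 expression were eliminated. The 9 genes were selected with their values in these libraries already known, so their levels and ratios are a description.

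An imprinted gene is transcribed mainly from the copy inherited from one parent, and many such genes are active in the fetus and are silenced in most tissues after birth. Paternally expressed members tend to promote growth and maternally expressed members to restrain it. Mest encodes an alpha/beta-hydrolase fold protein, Igf2 a growth factor, Dlk1 a transmembrane protein of the EGF-repeat family, and Peg3 and Plagl1 zinc finger proteins, all expressed from the paternal copy. Cdkn1c encodes the cyclin-dependent kinase inhibitor p57Kip2, Grb10 an adaptor that restrains insulin and IGF receptors, and H19 and Meg3 are long noncoding RNAs. The last 4 are expressed from the maternal copy in most tissues. The counts do not tell the parental copies apart.

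In the GENCODE vM21 annotation of the GRCm38 (mm10) genome, Mest spans chr6:30723547-30748465 on the plus strand. H19 (chr7:142575529-142578143), Igf2 (chr7:142650766-142666816) and Cdkn1c (chr7:143458339-143461050) lie near each other on the minus strand of chromosome 7, and Peg3 (chr7:6703892-6730431) lies on the same strand far from them. Dlk1 (chr12:109452823-109463336) and Meg3 (chr12:109541001-109571726) are neighbours on the plus strand. Plagl1 is at chr10:13060504-13131694 on the plus strand and Grb10 at chr11:11930508-12038683 on the minus strand. Igf2 is overlapped on its own strand by Gm49394, a feature of the same count files with 0 UMIs in stellate cells of both libraries. Reads from the shared 3′ end may have been assigned to neither gene, so the Igf2 level is uncertain. The 3′ end of Mest overlaps the last part of Copg2 on the opposite strand, and Cdkn1c overlaps Gm44732, also on the opposite strand.

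Promoter sequences are shown for Mest and Grb10, because imprinting is tied to methylation of CpG dinucleotides around some starts of such genes. Each is the 250 bases before a RefSeq transcript start (GRCm38.p6), read 5′ to 3′ on the strand of the gene, with every CpG in capitals. The RefSeq windows used here covered 7 of the 9 genes, and those of H19 and Cdkn1c were not analysed here. The windows are chr6:30737800-30738049 on the plus strand for Mest and chr11:12037421-12037670 on the minus strand for Grb10, and neither overlaps an annotated exon. Both genes have other starts, and for each the window with the most CpG that overlaps no exon is shown.
Mest: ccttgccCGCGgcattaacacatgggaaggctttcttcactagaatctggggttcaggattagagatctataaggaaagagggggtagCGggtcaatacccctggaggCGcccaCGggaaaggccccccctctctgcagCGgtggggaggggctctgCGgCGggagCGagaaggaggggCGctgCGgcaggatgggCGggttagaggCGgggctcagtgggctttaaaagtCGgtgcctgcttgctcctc
Grb10: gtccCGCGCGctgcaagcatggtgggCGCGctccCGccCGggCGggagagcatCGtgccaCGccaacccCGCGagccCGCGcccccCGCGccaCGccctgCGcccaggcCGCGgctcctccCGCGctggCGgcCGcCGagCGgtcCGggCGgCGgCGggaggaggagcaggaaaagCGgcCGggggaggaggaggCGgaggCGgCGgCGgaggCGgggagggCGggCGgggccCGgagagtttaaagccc
The Mest window shown holds 14 CpG and the Grb10 window 40, while windows of starts farther away hold 7 for Mest (chr6:30733256-30733505) and 8 for Grb10 (chr11:12027972-12028221), against a median of 6 over the 32851 promoter windows of the same length. Of those windows, 72.7% hold no more CpG than the Mest window shown and 98.9% no more than that of Grb10, against 57.0% and 59.7% for those farther away. The GC box GGGCGG was found on either strand in both windows and in 32.7% of all windows, while the TATA box TATAAA (12.4% of all windows) and the CCAAT box CCAAT (33.8%) were found in neither. Methylation was not measured here, so the windows shown cannot be taken as the starts where it is tied to imprinting. A count at the 3′ end does not tell which start was used.

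An intron of Mest also encodes the microRNA miR-335, whose mature arms are shown because they lie in the transcription unit of Mest, which differed most among the members of at least 5 CPM in stellate cells. Capitals mark the seed, bases 2 to 8.
mmu-miR-335-5p: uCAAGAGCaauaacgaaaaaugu
mmu-miR-335-3p: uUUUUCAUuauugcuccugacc
The arms lie at chr6:30741314-30741336 and chr6:30741354-30741375 on the plus strand and do not share a seed. Mature microRNAs are not captured by these libraries, so their level is unknown.

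After the limits on cells, 9004 of 11149 barcodes were kept in p16-LRTD and 7416 of 8806 in p16-Alb-LRTD. Stellate cells, defined by at least 15 UMIs of Lrat, Ecm1, Hgf and Reln together per 10000, numbered 7852 and 6621, with 142651137 and 125115995 UMIs in all and a median of 17024.5 and 18136 UMIs per cell. Only 52 and 35 kept cells lay within 20% of that limit. Endothelial cells (Kdr, Stab2 and Ptprb) numbered 430 and 283, and Kupffer cells (Clec4f, Cd5l, Vsig4 and Csf1r) 283 and 178. Each class carried the 6 other markers listed for it, with none at 0. The libraries shared 95 barcodes, of which 18 and 19 fell among stellate cells. The tdTomato reporter gave 501 and 835 UMIs over all kept cells, and its activation in hepatocytes, the step that separates the genotypes, could not be checked in these cells. Levels are given as CPM, the unique molecular identifiers (UMIs) of a gene, summed over a class, per 1000000 UMIs of that class, with the 95% exact Poisson interval. All intervals cover counting error only and not the spread between animals. A sum over cells does not tell fewer expressing cells from less RNA per cell.

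Mest showed the widest difference of the 6 members with a mean level of at least 5 CPM in stellate cells. Its level was 148 CPM (146 to 150.4) from 21170 UMIs in p16-LRTD and 51.1 CPM (49.9 to 52.4) from 6397 UMIs in p16-Alb-LRTD. The log2 ratio of p16-Alb-LRTD over p16-LRTD was therefore -1.54 (-1.58 to -1.497), which is 2.90-fold lower. Among the 10179 genes that reached 5 CPM, Mest ranked 45 from the lowest ratio. Cdkn1c differed in the opposite direction, from 2336 UMIs or 16.4 CPM (15.7 to 17.1) in p16-LRTD to 4204 UMIs or 33.6 CPM (32.6 to 34.6) in p16-Alb-LRTD. Its log2 ratio of 1.04 (0.96 to 1.11) ranked 87 from the highest and lay at the limit of 2-fold used for a call. Thus 1 of the 6 members was at least 2-fold lower and 1 at least 2-fold higher, where 0.943% and 0.923% of all genes were. Summed markers of other cell types in the stellate class were at 25.5 and 16.7 CPM for hepatocytes, 103 and 66.7 CPM for portal fibroblasts, 44.7 and 43.7 CPM for mesothelial cells, 76.6 and 53.3 CPM for endothelial cells, 19.8 and 15.7 CPM for Kupffer cells and 16.8 and 10.6 CPM for infiltrating macrophages. Those of cholangiocytes (3.27 and 7.58 CPM) and lymphocytes (0.540 and 1.22 CPM) were low but higher in p16-Alb-LRTD, and the part of all these lists in these ratios was not tested. The median log2 ratio was -0.23 over the 6 members and -0.05 over all genes of that level.

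**Figure D1:**
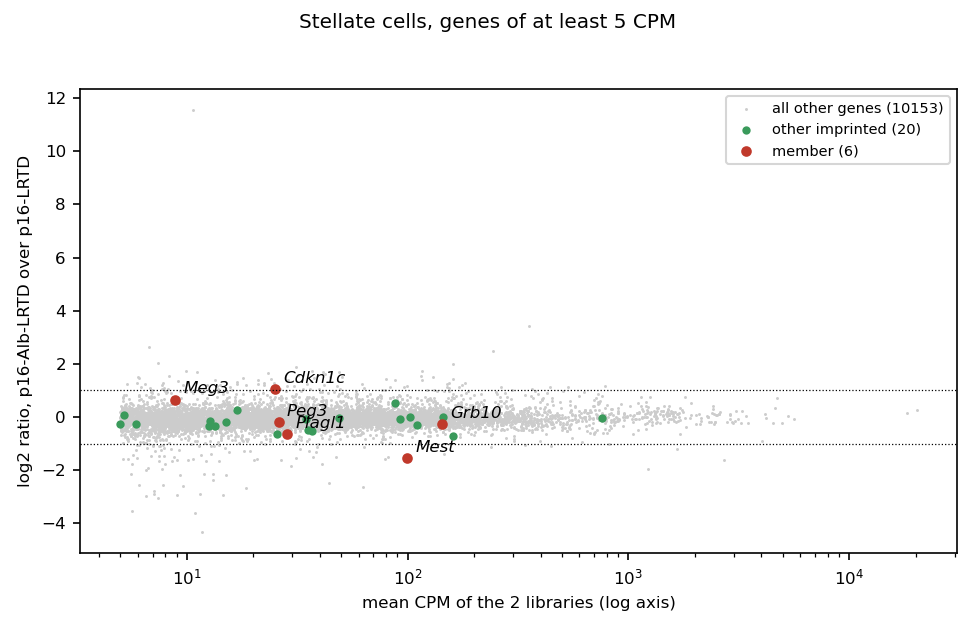
Log2 ratio of p16-Alb-LRTD over p16-LRTD in stellate cells (vertical axis) against the mean CPM of the 2 libraries (log axis) for the genes of at least 5 CPM. Grey points are other genes, green points the 20 other imprinted genes, red points the 6 members, and dotted lines mark 2-fold; Mest lies below the lower line at -1.54 and Cdkn1c at the upper one.

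The other paternally expressed members differed less. Plagl1, a zinc finger regulator of other imprinted genes, was at 34.6 CPM (33.6 to 35.5) in the control library and 22.3 CPM (21.5 to 23.2) in the other, with a log2 ratio of -0.63 (-0.70 to -0.56). Peg3 was at 27.7 CPM (26.9 to 28.6) and 24.3 CPM (23.5 to 25.2), with a log2 ratio of -0.19 (-0.26 to -0.12). Dlk1 and Igf2 were close to absent, with 23 and 50 UMIs of Dlk1, in 22 and 39 cells, and 5 UMIs of Igf2 in 5 cells of each library. Among the maternally expressed members, Grb10 was at 157 CPM (155 to 159) and 130.2 CPM (128 to 132), with a log2 ratio of -0.27 (-0.30 to -0.24). Meg3 was at 6.89 CPM (6.47 to 7.34) and 10.9 CPM (10.3 to 11.5), a log2 ratio of 0.66 (0.54 to 0.78). H19 gave 3 UMIs, all in 1 cell, in p16-LRTD and 15 UMIs in 4 cells in p16-Alb-LRTD. The parent from which a member is expressed therefore did not sort the directions, since Grb10 was lower and Cdkn1c and Meg3 were higher in p16-Alb-LRTD.

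None of the other listed imprinted genes of that level passed 2-fold, where 0.943% of all genes were lower and 0.923% higher by that much, so a count of 0 in lists of this size says little about imprinted genes. Of 23 other paternally expressed genes, 11 reached 5 CPM in stellate cells and 0 passed 2-fold in either direction, with log2 ratios from -0.73 for Airn (201 and 121 CPM) to 0.52 for Kcnq1ot1 and a median of -0.25. Of 25 other maternally expressed genes, 9 reached 5 CPM and 0 passed 2-fold, with ratios from -0.66 for Igf2r to 0.08 for Ppp1r9a and a median of -0.04. Genes at the ends of these ranges, other than Kcnq1ot1, are named for their values. Of the genes listed as neighbours of the members, Copg2 and Kcnq1ot1 reached that level, as did Osbpl5 of the maternal list, which lies in the cluster of Cdkn1c and was at 49.8 and 48.4 CPM. Copg2, which runs into the 3′ end of Mest, was at 43.3 CPM and 30.4 CPM, a log2 ratio of -0.51 (-0.57 to -0.45). Kcnq1ot1, the noncoding RNA that silences Cdkn1c on the paternal copy, was at 72.1 CPM and 103 CPM, with a log2 ratio of 0.52 (0.48 to 0.56), and so was higher in the same library as Cdkn1c. In the insulin and IGF axis on which Grb10 and Igf2 act, 12 of 15 genes reached 5 CPM, 1 was at least 2-fold lower and 0 were 2-fold higher. The lower gene was Igfbp5, an IGF-binding protein named after its value was seen, at 12.2 CPM and 3.14 CPM. Irs2, an insulin receptor substrate named in the same way, was just under the limit in the other direction, at 91.3 CPM and 181 CPM (log2 ratio 0.99). Igf2r stands in this list and in that of maternally expressed genes.

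The Mest counts of single cells were compared at 1 depth. Each stellate cell was thinned at random to 5000 UMIs, which left out 16 and 7 shallower cells. At this depth, 34.0% (33.0 to 35.1, exact Clopper-Pearson interval) of stellate cells in p16-LRTD and 16.3% (15.4 to 17.2) in p16-Alb-LRTD had a Mest UMI, against 54.9% and 36.7% without thinning. A cell with 0 UMIs may still express the gene, so these shares do not tell fewer expressing cells from less RNA per cell. Positive cells held a mean of 2.64 and 1.59 Mest UMIs, and cells with at least 3 made up 12.1% and 2.16%. In Kupffer cells, which are macrophages and served as the measure of free RNA, 1.08% and 0.565% had a Mest UMI after thinning, at a median depth before thinning of 19514 and 25101.5 UMIs. The highest count in a stellate cell was 62 Mest UMIs in p16-LRTD and 30 in p16-Alb-LRTD, and the 5% of cells with the most Mest held 36.4% and 44.5% of its UMIs. Grb10 was less concentrated than Mest, with 49.3% and 43.8% of thinned cells positive and 19.3% and 19.4% of its UMIs in the top 5% of cells. Cdkn1c was found in 7.52% (6.94 to 8.12) of thinned stellate cells in p16-LRTD and in 15.1% (14.3 to 16.04) in p16-Alb-LRTD, while without thinning it was found in 20.9% and 36.01% of stellate cells and 2.47% and 2.25% of Kupffer cells.

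**Figure D2:**
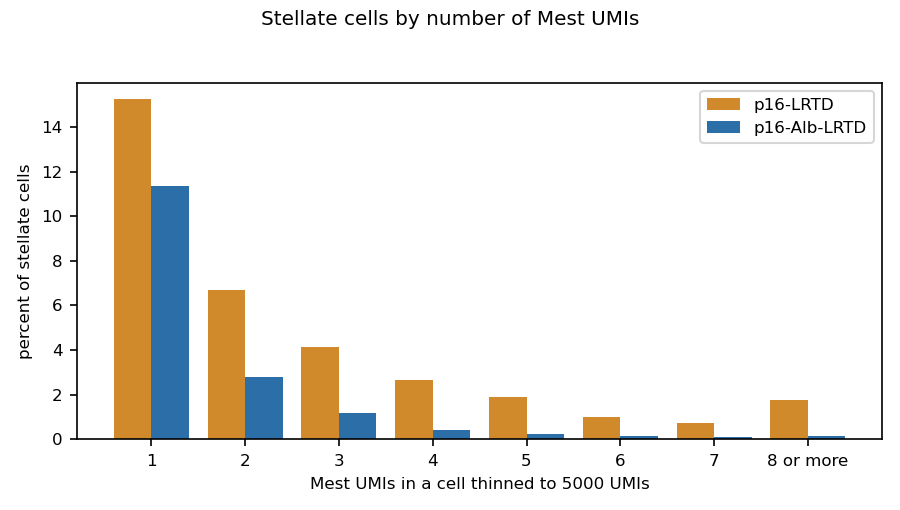
Percent of stellate cells (vertical axis) with 1, 2 and up to 8 or more Mest UMIs after each cell was thinned to 5000 UMIs, by library; cells without Mest (66.0% in p16-LRTD and 83.7% in p16-Alb-LRTD) are not drawn. Bars for p16-LRTD stand above those for p16-Alb-LRTD at each number, and they reach 15.2% against 11.4% at 1 UMI and 1.77% against 0.136% at 8 or more.

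Mest and the fibrillar collagens marked different stellate cells. Cells of both libraries were divided at the quartiles of their summed Col1a1, Col1a2 and Col3a1 level, at 14.3, 23.1 and 51.0 UMIs per 10000. In p16-LRTD, Mest was at 316 CPM (310 to 323) in the lowest quartile, 280.2 in the second, 129 in the third and 31.1 CPM (29.7 to 32.5) in the highest, 10.2-fold below the lowest. In p16-Alb-LRTD the levels were 82.3, 56.4, 29.1 and 15.7 CPM in the same order, so Mest was lower at each step of collagen. The log2 ratios between the libraries were -1.94 (-2.005 to -1.88), -2.31 (-2.38 to -2.24), -2.15 (-2.25 to -2.05) and -0.99 (-1.19 to -0.78). The highest quartile held 36.8% of stellate cells in p16-LRTD and 11.0% in p16-Alb-LRTD. With equal weight given to the 4 quartiles, the ratio for Mest was -2.04. Cells of the highest quartile were not alike in collagen between the libraries, with Col1a1 at 4203 and 2325 CPM.

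**Figure D3:**
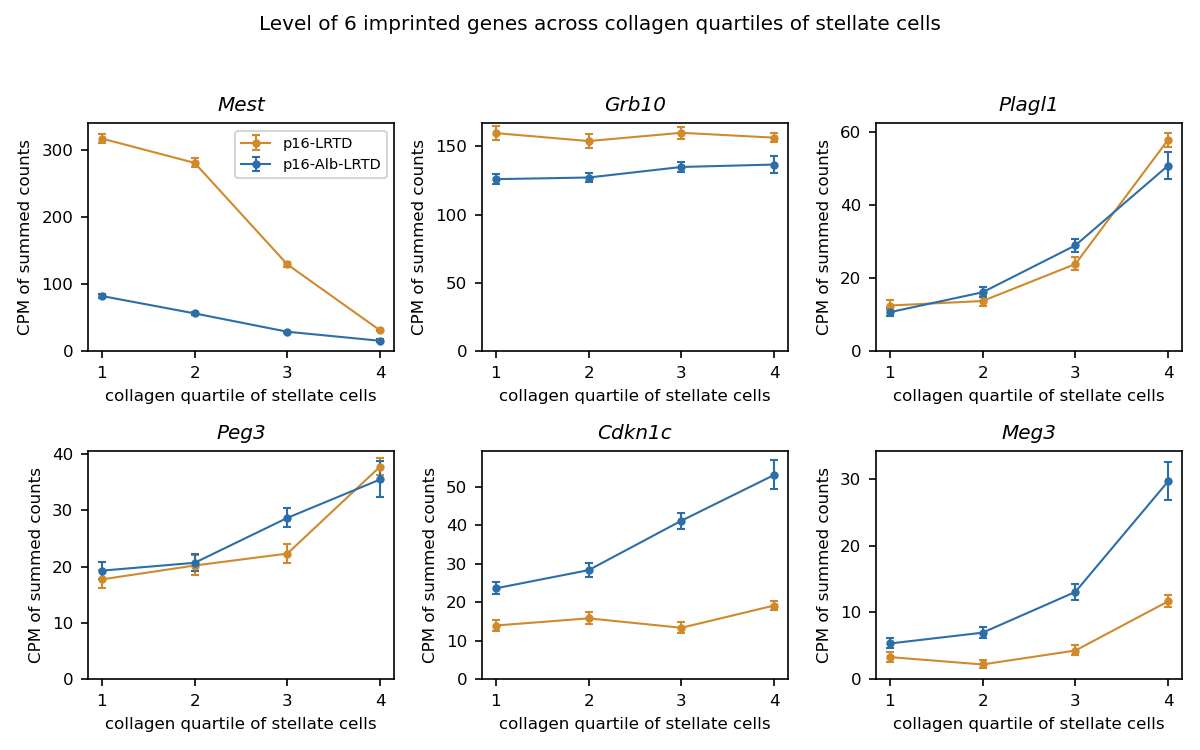
CPM of summed counts (vertical axes, from 0) of Mest, Grb10, Plagl1, Peg3, Cdkn1c and Meg3 in the 4 collagen quartiles of stellate cells, lowest to highest from left to right, with 95% exact Poisson intervals, by library. Mest is lower with more collagen, Grb10 is nearly level, and Plagl1, Peg3, Cdkn1c and Meg3 are higher in the highest than in the lowest quartile of both libraries.

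The other members followed collagen in other ways. Plagl1 was at 12.5 CPM in the lowest and 57.8 CPM in the highest quartile of p16-LRTD, and at 10.7 and 50.8 CPM in p16-Alb-LRTD. Within quartiles its log2 ratio was -0.23, 0.23, 0.28 and -0.19, and with equal weight to the quartiles it was -0.02. The intervals were below 0 in the lowest quartile (-0.44 to -0.0091) and the highest (-0.31 to -0.07) and above 0 in the 2 between them. Peg3 was 2.13-fold higher in the highest than in the lowest quartile of p16-LRTD, and its ratio with equal weights was 0.09. Cdkn1c was at 13.9, 15.8, 13.4 and 19.1 CPM across quartiles in p16-LRTD, with a log2 ratio of the highest over the lowest of 0.46 (0.29 to 0.63). In p16-Alb-LRTD it was at 23.6, 28.3, 41.2 and 53.1 CPM, where the same log2 ratio was 1.17 (1.03 to 1.31). Between the libraries its log2 ratio was 0.76 (0.58 to 0.94) in the lowest quartile, 0.84 in the second, 1.63 (1.47 to 1.79) in the third and 1.47 (1.34 to 1.61) in the highest. Meg3 was at 11.7 CPM in the highest quartile of p16-LRTD and at 29.7 CPM in that of p16-Alb-LRTD. Its log2 ratio was 0.70, 1.66, 1.61 and 1.35 from the lowest to the highest quartile and 1.36 with equal weights, against 0.66 over all stellate cells. Grb10 stayed between 154 and 159.9 CPM in p16-LRTD and between 126 and 137 CPM in p16-Alb-LRTD.

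Mest also varied with markers of position in the liver lobule. In the 10% of stellate cells with the highest sum of Ngfr, Il34, Itgb3 and Igfbp3, genes of cells near the portal vein, Mest was at 394 CPM in the control library against 118 CPM in the other, with a log2 ratio of -1.74 (-1.83 to -1.65). In the 10% with the highest sum of Adamtsl2, Rspo3, Spon2 and Podn, genes of cells near the central vein, it was at 24.9 and 21.2 CPM, a log2 ratio of -0.23 (-0.47 to 0.0045). In these central-type cells, Plagl1 was at 56.6 and 27.3 CPM and Cdkn1c at 14.5 and 42.8 CPM. The 10% was taken within each library, so the score at the cut may differ between the libraries. Such scores rank cells and do not define types. In cells with a UMI of the cell division genes Mki67 or Top2a, 448 and 219 in number, Mest was at 67.2 and 46.8 CPM and Cdkn1c, which blocks division, at 10.6 and 34.0 CPM. Without these cells the log2 ratios were -1.59 for Mest and 0.996 (0.92 to 1.07) for Cdkn1c, so that Cdkn1c then fell short of 2-fold.

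The genes most like Mest across stellate cells were Clstn2, Lsamp, Sod3, Myh11, Clca3a1, Rgs4, Ndufa4l2 and Tnfrsf11b, out of 6342 genes of at least 20 CPM in both libraries. Likeness was Pearson's r of log counts per 10000 over 7852 and 6621 cells, given as a description because the cells of a library share its depth and its animals. Genes were ranked by the lower r of the 2 libraries, so a gene outside the list can have a higher r in 1 library. Clstn2, a calsyntenin, was first, with r of 0.67 in p16-LRTD and 0.46 in p16-Alb-LRTD, and Myh11, the smooth muscle myosin heavy chain, had 0.59 and 0.40. Of the members, only Grb10, Peg3 and Plagl1 reached that level beside Mest and could be ranked, and none of the 3 was among these genes. Their values were 0.02 and -0.0049 for Grb10, -0.12 and -0.07 for Peg3, and -0.19 and -0.11 for Plagl1, against -0.51 and -0.30 for Col1a1. Clstn2 was also lower in p16-Alb-LRTD, at 121 and 42.6 CPM, with a log2 ratio of -1.504 (-1.55 to -1.46). The log2 ratios of the other 7 lay between -1.03 and -0.30.

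Stellate cells were then divided by their Clstn2 UMIs, a division chosen after the data were seen. Cells with at least 3 were 22.4% of stellate cells in p16-LRTD and 8.91% in p16-Alb-LRTD. In these cells Mest was at 466 and 186 CPM (log2 ratio -1.32, -1.39 to -1.26), in cells with 1 to 2 at 196 and 104 CPM (-0.91), and in cells with 0 at 46.3 and 29.8 CPM (-0.63). Mest was thus lower in p16-Alb-LRTD within each set, and with equal weight to the 3 sets the ratio was -1.15. Because Clstn2 was chosen for its likeness to Mest and was itself lower in p16-Alb-LRTD, the sets may not hold the same kind of cell in both libraries, and fewer such cells cannot be told apart from less Clstn2 per cell. Cdkn1c was level across the sets in p16-LRTD, at 16.4, 16.02 and 16.4 CPM, and in p16-Alb-LRTD it was at 36.9, 20.2 and 17.6 CPM. Its log2 ratio was 1.17 (1.08 to 1.25) in cells with 0 Clstn2 UMIs, and in cells with at least 3 the ratio of 0.10 (-0.14 to 0.34) was not distinguishable from 0 at this depth. With equal weights it was 0.61.

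Meg3 was found in few stellate cells. Only 199 of 7852 cells in p16-LRTD and 250 of 6621 in p16-Alb-LRTD had a UMI, and up to 68 and 73 were counted in 1 cell. Cells with at least 3 Meg3 UMIs, a set defined after the values were seen, numbered 92 (1.17%) and 139 (2.10%), and Meg3 was at 435 and 468 CPM in them. They held 846 of 983 and 1217 of 1361 Meg3 UMIs. Of H19 UMIs they held 3 of 3 and 12 of 15, and of Dlk1 UMIs 4 of 23 and 24 of 50. Plagl1 was at 140.4 CPM in these cells of p16-LRTD, against 33.1 CPM in the rest, and at 98.8 against 20.7 CPM in p16-Alb-LRTD. Cdkn1c was at 54.5 against 15.8 CPM and at 102 against 32.2 CPM, and Peg3 at 77.6 against 27.0 and at 66.1 against 23.4 CPM. Mest was lower in them, at 48.3 against 149.8 CPM and at 29.2 against 51.6 CPM. The 6 portal fibroblast markers summed to 418 and 382 CPM in Meg3-rich cells and to 99.1 and 60.04 CPM in the rest, and the 4 mesothelial markers to 316 and 305 against 40.9 and 38.2 CPM. The retinol-storing gene Lrat, part of the class rule, was at 944 and 1229 CPM in them against 1310.1 and 1515 CPM in the rest, and Col1a1 at 4914 and 1419 against 1909 and 485 CPM. Whether the Meg3-rich cells contain other cell types was not tested. Without them, the log2 ratio of Cdkn1c was 1.02, and that of Meg3, whose counts define the set, was 0.27.

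**Figure D4:**
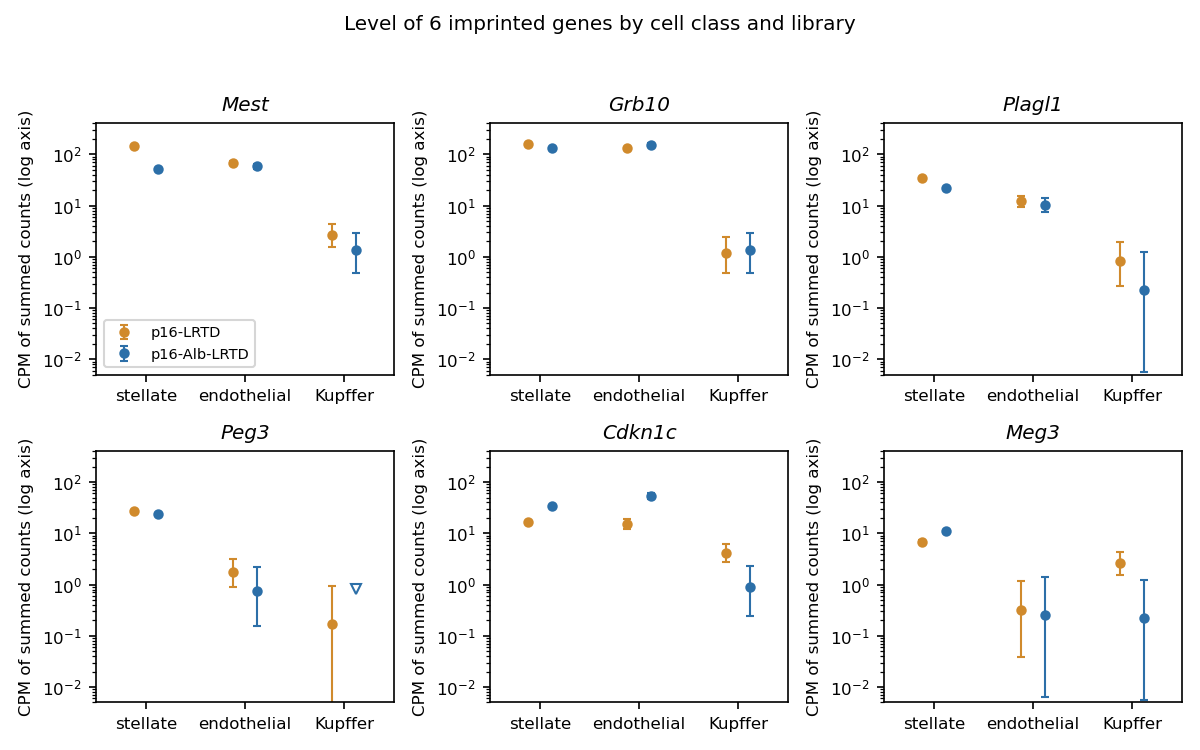
CPM of summed counts (log axes) of 6 members in stellate, endothelial and Kupffer cells, by library, with 95% exact Poisson intervals; an open triangle is the upper limit where no UMI was counted. Mest, Grb10, Plagl1 and Cdkn1c are at 10.3 CPM or more in stellate and endothelial cells of both libraries, and all 6 members are at 4.21 CPM or less in Kupffer cells.

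Endothelial cells shared 4 of the members with stellate cells. Mest was at 68.6 CPM (62.2 to 75.4) in the control library and 58.0 CPM (50.8 to 66.0) in p16-Alb-LRTD, so that the log2 ratio was -0.24 (-0.48 to -0.0068). In p16-LRTD, Mest was therefore highest in stellate, then endothelial, then Kupffer cells, whereas in p16-Alb-LRTD the endothelial and stellate intervals overlapped. The 8 reference genes of stellate cells, among them Dcn and Colec11, were detected in endothelial cells at a median of 2.53% and 1.66% of their stellate level, a measure of free RNA, while Mest stood at 46.2% and 113%. When barcodes that passed several class limits were kept, the endothelial Mest ratio was -0.87. Cdkn1c was at 15.3 CPM (12.3 to 18.7) and 53.0 CPM (46.1 to 60.6), a log2 ratio of 1.79 (1.44 to 2.16), and after thinning 7.42% and 21.9% of endothelial cells had a UMI. It was the 1 member at least 2-fold higher in this class, where 2% of 9858 genes were, and 0 were at least 2-fold lower, where 3.65% of genes were. Grb10 was at 130.6 and 152 CPM, a log2 ratio of 0.22 (0.07 to 0.37), and Plagl1 at 12.02 and 10.3 CPM. Peg3 gave 11 and 3 UMIs, Meg3 2 and 1, and H19, Igf2 and Dlk1 0 in both libraries, with exact Poisson upper limits of 0.599 and 0.926 CPM. The portal fibroblast markers summed to 204 and 295 CPM in the endothelial class and the infiltrating macrophage markers to 30.7 and 119 CPM. Of these lists, 3 of 6 and 3 of 5 genes reached 5 CPM in each library, so the sums rest on part of each. In the same class Col1a1 was at 215 and 5.02 CPM and the division gene Top2a at 15.6 and 0.502 CPM. Over 14 alternatives, among them leaving out endothelial cells rich in Col1a1 and leaving out cycling cells, the Cdkn1c ratio ranged from 1.39 to 2.10. The Mest ratio ranged from -0.87 to -0.14. The part of the fibroblast and macrophage markers in the endothelial ratios was not tested.

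In Kupffer cells 0 of the 9 members reached a mean of 5 CPM, so none could be called, where 1.87% of 9514 genes were at least 2-fold lower and 1.7% at least 2-fold higher. Mest was at 2.69 CPM (16 UMIs in 16 cells) and 1.34 CPM (6 UMIs in 6 cells), or 1.81% and 2.62% of its stellate level, with intervals of 1.04% to 2.95% and 0.962% to 5.71%. These intervals include the median of 1.52% and 1.43% for the reference genes, so Mest could not be told from free RNA in this class. Cdkn1c gave 25 and 4 UMIs, of which 19 in p16-LRTD came from 1 cell, and all 16 Meg3 UMIs of p16-LRTD came from another. The Cdkn1c and Meg3 ratios in this class therefore rest on single cells. The 3 genes H19, Igf2 and Dlk1 gave 0 UMIs, with exact Poisson upper limits of 0.620 and 0.825 CPM.

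**Figure D5:**
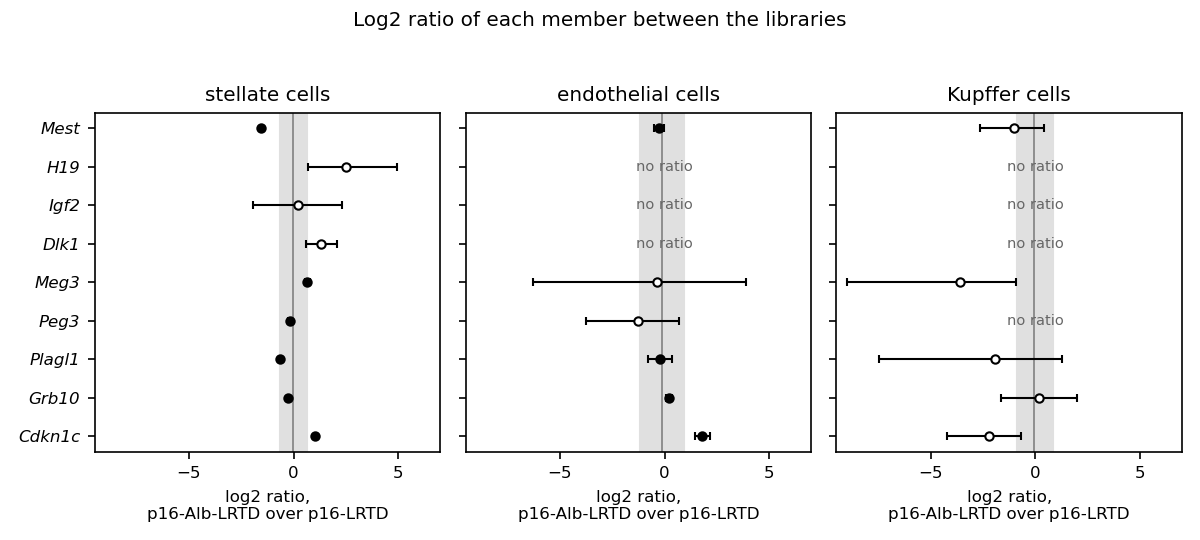
Log2 ratio of p16-Alb-LRTD over p16-LRTD (horizontal axes) for each member in 3 cell classes, with exact 95% intervals for counting error; filled points are at a mean of at least 5 CPM, open points below it, and "no ratio" marks a member without UMIs in a library. Grey bands hold the central 95% of all genes of at least 5 CPM with a finite ratio, from -0.65 to 0.66 in stellate cells, and Mest and Cdkn1c lie outside them there while Meg3 lies at the upper edge. The open points of H19 at 2.51 (0.69 to 4.94) and Dlk1 at 1.31 (0.57 to 2.09) also lie outside and rest on few UMIs.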

How the data were processed

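Single-cell RNA was measured with the 10x Genomics 3′ kit v3.1 in 2 libraries, 1 per genotype. The values used are UMI counts for each gene in each barcode as the authors deposited them, not normalized, which per the labels come from Cell Ranger 7.0.1 on mm10; whether intronic reads were counted is not given in the sources used here. From these counts, barcodes with at most 5% mitochondrial UMIs, 2000 to 7000 genes and at most 50000 UMIs were kept, after the study's methods. Classes were set per 10000 UMIs: stellate cells at 15 or more, endothelial and Kupffer cells at 8 or more, and barcodes above several limits were left out (245 and 221). No doublet caller was run. Counts were summed per class and expressed as CPM; log2 ratios carry exact conditional intervals and shares Clopper-Pearson intervals at the 95% level. A call is a 2-fold difference at a mean of 5 CPM. With 1 library per group no test was made. The 9 members, their comparison lists and the comparisons were chosen with earlier results of these data known. Named genes are all members, cluster neighbours and other imprinted genes past those limits, and the 8 genes most like Mest. Airn, Igf2r, Ppp1r9a, Osbpl5, Igfbp5 and Irs2 fall outside this rule and were chosen after their values were seen. Alternatives changed cell limits, class limits, scaling and weights (TMM from edgeR 4.0.16 in R 4.3.3); Python 3.11.15, numpy 2.4.6 and scipy 1.17.1 did the rest. The interval and thinning code was tested on simulated data. Promoter and microRNA sequences are from RefSeq (GRCm38.p6), positions from GENCODE vM21.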

Additional observations from a re-analysis of the deposited data

Results flagged for a closer look

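The 3 members Cdkn1c, Meg3 and Grb10 differed between the libraries in opposite directions in different classes, each with an interval on its own side of 0. The difference between the classes was not tested, because each class holds 1 library per genotype. Cdkn1c had a log2 ratio of 1.04 in stellate and 1.79 in endothelial cells but -2.23 in Kupffer cells, where 19 of 25 UMIs of p16-LRTD were in 1 cell of 17372 UMIs. Without the Kupffer cell with the most Cdkn1c in each library, 6 and 3 UMIs were left and the ratio was -0.59 (-3.22 to 1.64). Meg3 had a ratio of 0.66 in stellate cells, -3.59 in Kupffer cells and -2.24 in kept cells of no class. The 16 Meg3 UMIs of Kupffer cells in p16-LRTD were all in 1 cell, which also held 42 Col1a1 UMIs, and without it 0 were left in that library. Grb10 had a ratio of -0.27 in stellate cells, 0.22 in endothelial cells and -0.55 in cells of no class, each under 2-fold.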

How the results depend on the processing

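Mest was lower in stellate cells of p16-Alb-LRTD under all 16 alternatives, with log2 ratios from -2.04 to -1.15, and Cdkn1c was higher under all 16, from 0.61 to 1.23. For Mest, values outside the interval of the reported one were -1.49 without upper limits on genes and UMIs, -1.49 with TMM and -1.49 with median-of-ratios scaling, -1.81 as the mean of per-cell CPM, -1.59 without cycling cells, -2.04 with equal weight to collagen quartiles and -1.15 with equal weight to Clstn2 sets, the last chosen after the data were seen. For Cdkn1c they were 1.23 and 0.61 under those weights. In stellate cells the number of members at least 2-fold lower was 1 throughout. The number at least 2-fold higher was 2 with collagen weights, which added Meg3, and 0 without cycling cells or with Clstn2 weights. The share of stellate cells with a Mest UMI was 26.6% and 11.3% after thinning to 3000 UMIs and 54.9% and 36.7% without thinning. Of 362 alternative values for 42 results, 305 stayed near the reported one and 57 did not, where near means within the counting interval for ratios and shares of cells and within 1.5-fold for counts of members and shares of all genes. Since these intervals are narrow, the 57 include small shifts. No called ratio changed sign, while Peg3 in stellate cells, under 2-fold, was at 0.09 with collagen weights. Other ratios not called also changed sign under some alternatives. They were Igf2 in stellate cells, Meg3, Peg3 and Plagl1 in endothelial cells and Grb10 in Kupffer cells. With a minimum mean of 1 CPM, 2.17% of all genes were at least 2-fold lower in stellate, 7.29% in endothelial and 5.58% in Kupffer cells. The shares higher were 1.14%, 4.19% and 3.28%. Of the members at that level, 1 of 6, 1 of 5 and 3 of 4 were lower, and 1, 1 and 0 higher. Peg3 in endothelial cells and Meg3 and Cdkn1c in Kupffer cells passed this minimum through p16-LRTD alone, where they were higher. In Kupffer cells Mest, the other lower member, gave 16 and 6 UMIs. These counts of lower members in endothelial and Kupffer cells are therefore not read as a result. Leaving out a library, and count tests, were not run, because each genotype has 1 library. No paired analysis was possible because each group holds a single library. In Kupffer cells a count of 0 has an exact upper limit of 0.620 and 0.825 CPM, which limits what can be seen there.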

Other observations

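Kept cells that met no class rule, 194 in p16-LRTD and 113 in p16-Alb-LRTD, had the highest summed Meg3 level, at 208.8 CPM (196 to 223) and 44.3 CPM (36.7 to 53.0). Meg3 was found in 70 and 18 of them, and the 47 and 11 cells with at least 3 Meg3 UMIs carried it at 656 and 257 CPM. In those cells the 4 mesothelial markers summed to 1120.5 and 541 CPM, the 6 portal fibroblast markers to 699 and 675 CPM, the 6 hepatocyte markers to 1866 and 4.81 CPM, and the stellate gene Lrat to 54.5 and 16.8 CPM. The no-class cells also held infiltrating macrophage markers at 2701 and 4180 CPM in sum, so they are a mixture, and the part of its makeup in the Meg3 values was not tested. Mest was nearly absent from them, with 9 and 6 UMIs. In barcodes that passed several class limits, Mest was at 183 and 71.9 CPM and Cdkn1c at 15.6 and 33.3 CPM, log2 ratios of -1.35 (-1.51 to -1.19) and 1.10 (0.74 to 1.46).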
